A study of Homo sapiens with 6 samples.

Results

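The ADAMTS metalloproteases are secreted enzymes that cut proteins of the extracellular matrix, and 8 of their genes were examined here in fibroblasts: ADAMTS1, ADAMTS2, ADAMTS4, ADAMTS5, ADAMTS6, ADAMTS9, ADAMTS12 and ADAMTS14. They were found by gene symbol, and all 8 were present among the 25368 symbols of each of 2 deposited tables. The tables hold 6 RNA-seq libraries of MRC5, fibroblasts from human embryonic lung that had been immortalized with hTERT, with 1 library per condition. In the first table the cells had been infected for 2 h with adenovirus carrying an empty vector (the control), FLAG-tagged wild-type JUN (JUN WT) or an inactive JUN whose JNK phosphorylation sites were changed to alanine (JUN AA), and were then cultured for 3 days. In the second table, the cells were untreated MRC5, induced CAFs (iCAFs) made by 7 days in medium conditioned by MDA-MB-231, a human breast cancer cell line, or iCAFs that received 1 µM of the JNK inhibitor JNK-IN-8 (iCAFs+JNKi) for 48 h. The protocol names DMSO as the vehicle for iCAFs, while the label of the iCAFs library itself names no vehicle. With 1 library per condition, the spread between replicates is unknown, and the differences below are descriptions of these libraries without a test.

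The values are FPKM, fragments scaled for sequencing depth and for exon length, so they can be compared between genes of different length. Differences are given as log2(FPKM + 1) of one library minus that of another of the same table, on which changes of scarce genes look smaller than they are, and a difference of at least 1 is called 2-fold. The background for each comparison is the share of genes called 2-fold among those whose mean over the 3 libraries of the table reached 1 FPKM, which were 10311 genes in the JUN table and 11780 in the JNKi table. Of the 8 ADAMTS genes, 5 reached that mean in each table. ADAMTS4 and ADAMTS6 did not in either, ADAMTS9 did not in the JUN table and ADAMTS14 did not in the JNKi table, but all 8 are counted below whatever their level. A gene under 1 FPKM in both libraries cannot reach a difference of 1. For that reason ADAMTS4 and ADAMTS6 could not be called in any comparison, nor ADAMTS9 in those of the JUN table. JUN was at 25.5 FPKM with the empty vector, 4543 with JUN WT and 291 with JUN AA, so the JUN libraries differed in the amount of JUN mRNA as well as in its phosphorylation sites, and these cannot be told apart. In the JNKi table JUN was at 57.1 FPKM in MRC5, 55.3 in iCAFs and 21.1 after JNKi. All 11 fibroblast markers examined were at 1 FPKM or more in all 6 libraries, with a summed level between 4049 and 6294 FPKM. The epithelial markers CDH1 and ESRP1 and the T cell marker CD3E were listed at 0 in all 6 libraries. None of the 4 endothelial markers reached 1 FPKM, and their sum lay between 0.129 and 0.628 FPKM. Of 7 epithelial markers, 2 or 3 reached 1 FPKM in each library, with sums between 19.99 and 56.4 FPKM, mostly from KRT8 and KRT18. Of 5 leukocyte markers, CD68 alone reached 1 FPKM, and the sum of this list was 86.0 FPKM in JUN WT and between 31.2 and 48.7 FPKM in the other libraries. The part of these markers in the results was not tested. In RNA from whole cultures, fewer cells that use a gene and less RNA per cell cannot be told apart.

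ADAMTS enzymes are made as inactive precursors that proprotein convertases such as furin activate, and they carry a catalytic domain with a zinc ion followed by thrombospondin repeats that bind the matrix. ADAMTS1, ADAMTS4, ADAMTS5 and ADAMTS9 cleave large proteoglycans such as versican and aggrecan, ADAMTS2 and ADAMTS14 remove the N-terminal propeptides of fibrillar procollagens, and ADAMTS12 cleaves cartilage oligomeric matrix protein (COMP). ADAMTS6 is a close relative of ADAMTS10, an enzyme linked to fibrillin microfibrils. TIMP3 is the tissue inhibitor that acts most strongly on the proteoglycan-cleaving members, and the receptor LRP1 takes several of them up from the cell surface.

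The zinc-binding stretch is given to show how far the 8 genes differ over it, which bears on whether their reads could be mixed. How the genes are related was not tested. The stretch of 33 coding bases was read 5′ to 3′ from the canonical transcripts of the GENCODE annotation on GRCh37, the assembly also called hg19, and the capitals mark the codons of the 3 histidines that hold the zinc ion.
ADAMTS1: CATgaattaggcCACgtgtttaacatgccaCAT
ADAMTS4: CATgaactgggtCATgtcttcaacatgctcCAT
ADAMTS9: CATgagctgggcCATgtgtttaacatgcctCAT
ADAMTS5: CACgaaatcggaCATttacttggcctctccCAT
ADAMTS2: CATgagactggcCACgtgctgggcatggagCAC
ADAMTS14: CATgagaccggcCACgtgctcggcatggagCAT
ADAMTS6: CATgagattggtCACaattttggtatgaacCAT
ADAMTS12: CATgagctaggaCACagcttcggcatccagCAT
Over these 33 bases, the 28 pairs of genes shared between 18 and 30 identical bases, with a median of 21. ADAMTS2 and ADAMTS14, which act on procollagens, were the closest pair with 30 identical bases, followed by ADAMTS1 and ADAMTS9 with 28 and by ADAMTS4 and ADAMTS9 with 27. ADAMTS5, although it shares substrates with ADAMTS4, matched it at 19 bases. An intron interrupts the stretch in every one of the 8 genes, but not at the same base. In ADAMTS1, ADAMTS4 and ADAMTS5 the exon ends after base 10 of the stretch, and in ADAMTS2, ADAMTS6, ADAMTS9, ADAMTS12 and ADAMTS14 it ends after base 17. Across whole transcripts, the longest run of identical bases between members had a median of 14 over the 28 pairs. The longest, 38 bases, was between ADAMTS2 and ADAMTS14, and the next, 21 bases, was between ADAMTS4 and ADAMTS5. None of the 8 genes shared exon bases with another gene on the same strand, and ADAMTS9 alone shared some with a gene on the opposite strand, ADAMTS9-AS1.

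ADAMTS1 was the most abundant member in all 6 libraries. On GRCh37, as for the other genes, ADAMTS1 lies on the minus strand of chromosome 21 from 28208074 to 28217728, and its zinc-binding stretch runs across exons 3 and 4 of 9, within chr21:28213462-28214186. It was at 41.4 FPKM with the empty vector, 33.4 with JUN WT and 33.7 with JUN AA. In the JNKi table, it was at 81.1 FPKM in MRC5, 72.4 in iCAFs and 113 after JNKi. The level was thus lowest in the JUN libraries of the first table and highest with JNKi in the second. ADAMTS1 made up between 49.9% and 53.3% of the summed FPKM of the 8 genes in the first table and between 57.9% and 68.2% in the second. Its log2 change was -0.30 for JUN WT and -0.29 for JUN AA against the control, -0.16 from MRC5 to iCAFs and 0.63 from iCAFs to iCAFs+JNKi. Of all measured genes, 4.65% were raised further with JNKi.

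ADAMTS5 is a potent aggrecan-cleaving enzyme. ADAMTS5 lies on the minus strand of chromosome 21 from 28290241 to 28339407, and its zinc-binding stretch runs across exons 2 and 3 of 8, within chr21:28315844-28327067. Its levels in the first table were close to one another, at 1.68 FPKM with the empty vector, 1.48 with JUN WT and 1.51 with JUN AA. In the JNKi table, it was at 2.87 FPKM in MRC5, 2.73 in iCAFs and 7.18 after JNKi. The library with JNKi stood above the others, and MRC5 and iCAFs were nearly level. Its log2 change of 1.13 in iCAFs+JNKi against iCAFs was the largest of the 8 genes in this comparison, and 1.81% of all measured genes were higher still. The ratio of FPKM was 2.63.

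The other proteoglycan-cleaving members were scarce. ADAMTS9 lies on the minus strand of chromosome 3 from 64501330 to 64673676, and its zinc-binding stretch runs across exons 8 and 9 of 40, within chr3:64636824-64640045. ADAMTS9 was at 0.675 FPKM with the empty vector, 0.245 with JUN WT and 0.162 with JUN AA, and at 0.722 FPKM in MRC5, 1.51 in iCAFs and 1.30 after JNKi. ADAMTS4 lies on the minus strand of chromosome 1 from 161154092 to 161168844, and its zinc-binding stretch runs across exons 3 and 4 of 9, within chr1:161165403-161165970. ADAMTS4 had the lowest level of the 8 genes in all 6 libraries, at 0.0569 FPKM with the empty vector, 0.133 with JUN WT and a listed 0 with JUN AA. It was at 0.0705 FPKM in MRC5, 0.180 in iCAFs and 0.134 after JNKi. At an unknown number of reads, values of this size cannot show whether ADAMTS4 differed between conditions. The direction of ADAMTS9, lower in JUN WT and JUN AA and higher in iCAFs, rests on values of 1.51 FPKM or less.

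ADAMTS2, the main procollagen N-proteinase, was the next most abundant member after ADAMTS1 in all 6 libraries. ADAMTS2 lies on the minus strand of chromosome 5 from 178537854 to 178772462, and its zinc-binding stretch runs across exons 7 and 8 of 22, within chr5:178581178-178581831. It was at 29.1 FPKM with the empty vector, 21.0 with JUN WT and 19.2 with JUN AA. It was at 18.2 FPKM in MRC5, 27.0 in iCAFs and 51.3 after JNKi. ADAMTS2 thus had its highest level with JNKi and was higher in iCAFs than in MRC5. Its log2 change was 0.54 from MRC5 to iCAFs, 0.90 from there to iCAFs+JNKi and 1.44 over both steps, the last the largest difference found for any of the 8 genes. Of all measured genes, 1.79% were raised further between MRC5 and iCAFs+JNKi. Against the control, its log2 change was -0.45 for JUN WT and -0.58 for JUN AA. The difference of 0.90 lies below the 2-fold limit but reached 1.00 when the median gene was set to 0 and 1.04 when each library was scaled to an equal FPKM sum.

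ADAMTS14, which acts on the same propeptides as ADAMTS2, had another order. ADAMTS14 lies on the plus strand of chromosome 10 from 72432262 to 72522197, and its zinc-binding stretch runs across exons 7 and 8 of 22, within chr10:72492099-72493656. It was at 1.86 FPKM with the empty vector, 2.60 with JUN WT and 4.97 with JUN AA. JUN AA was the highest of these libraries, and ADAMTS14 was there above ADAMTS12. The log2 change against the control was 1.06 in JUN AA, where 4.53% of all measured genes were higher still, and 0.33 in JUN WT. It was 0.94 in JUN AA with each library scaled to an equal FPKM sum, below the 2-fold limit. In the second table, ADAMTS14 was at 0.657 FPKM in MRC5, 1.22 in iCAFs and 1.08 after JNKi.

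ADAMTS12 had the lowest log2 change of the 8 genes in both JUN libraries against the control, with 1 added to the FPKM. With 0.1 added, ADAMTS9 was lower, at -1.17 against -1.03 in JUN WT and -1.56 against -1.21 in JUN AA. Those values of ADAMTS9 rest on levels under 1 FPKM. ADAMTS12 lies on the minus strand of chromosome 5 from 33523640 to 33892124, and its zinc-binding stretch runs across exons 7 and 8 of 24, within chr5:33649787-33658305. It was at 8.03 FPKM with the empty vector, 3.88 with JUN WT and 3.41 with JUN AA. Both JUN libraries were below the control and close to each other, with a log2 change of -0.89 for JUN WT, -1.03 for JUN AA and 0.14 between JUN WT and JUN AA. With each library scaled to an equal FPKM sum, these were -0.97, -1.39 and 0.42, so the closeness depended on scaling. Of all measured genes, 4.67% were lowered further in JUN WT and 3.42% in JUN AA. The side of the 2-fold limit depended on the settings, and with length and GC trends removed, the log2 change was -1.15 for JUN WT and -0.84 for JUN AA. In the second table, ADAMTS12 was at 14.9 FPKM in MRC5, 19.1 in iCAFs and 20.7 after JNKi, the narrowest spread in ratio of the 8 genes in that table. ADAMTS6 lies on the minus strand of chromosome 5 from 64444565 to 64777747, and its zinc-binding stretch runs across exons 9 and 10 of 25, within chr5:64595943-64625221. ADAMTS6 was at 0.115 FPKM with the empty vector, 0.221 with JUN WT and 0.252 with JUN AA, and at 0.440 FPKM in MRC5, 0.720 in iCAFs and 0.185 after JNKi. Its level with JNKi was 0.257 times that in iCAFs, but all of these values are below 1 FPKM.

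**Figure D1:**
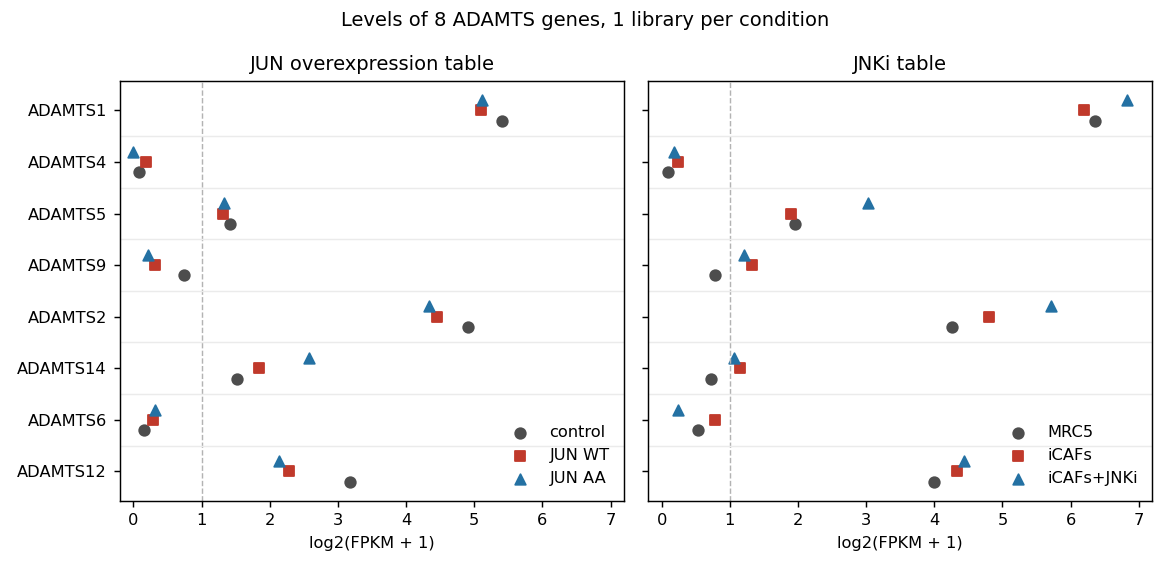
Level of the 8 ADAMTS genes in each library, as log2(FPKM + 1), with 1 point per library and the dashed line at 1 FPKM. ADAMTS1 and ADAMTS2 lie furthest to the right in both tables, ADAMTS4 lies furthest to the left, and in the JNKi table the triangles of iCAFs+JNKi stand apart for ADAMTS5 and ADAMTS2.

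Between JUN WT and the control, none of the 8 genes was 2-fold higher or lower, where 10.3% of all measured genes were, 6.92% higher and 3.39% lower. ADAMTS4, ADAMTS6 and ADAMTS9 were too scarce to be called, so none among so few genes is not read as a result about the 8. The plain ratio of FPKM to the control was 0.483 for ADAMTS12, 0.363 for ADAMTS9 and 2.34 for ADAMTS4. Of the 8, 5 were lower and 3 higher (ADAMTS4, ADAMTS6 and ADAMTS14), and the median log2 change was -0.21, while that of all measured genes was 0.15. In JUN AA against the control, ADAMTS14 was 2-fold higher and ADAMTS12 2-fold lower, where 9.06% of all genes were 2-fold different, 5.29% higher and 3.77% lower. The median over the 8 genes was -0.19 and that of all genes was -0.02. These comparisons share the control library. Of the 11 fibroblast markers, 4 were 2-fold lower in JUN WT, and 3 were 2-fold lower and 1 was 2-fold higher in JUN AA. Their medians were -0.57 and -0.31, and their part in these differences was not tested. Between JUN WT and JUN AA directly, none of the 8 was 2-fold different, where 12.3% of all genes were, 6.65% higher and 5.61% lower. This count is not read as a result about the 8 genes either. Their differences ran from -0.73 for ADAMTS14 to 0.18 for ADAMTS4, and the median of all genes was 0.18. With each library scaled to an equal FPKM sum, the median of all genes became 0.47 in this comparison and -0.29 in JUN AA against the control, as the FPKM of JUN AA summed to 613184 and those of the control to 494603. The small differences of ADAMTS1, ADAMTS5 and ADAMTS6 between JUN WT and JUN AA changed sign with that scaling, and those of ADAMTS2, ADAMTS4, ADAMTS9 and ADAMTS12 did so when the median gene was set to 0.

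In iCAFs against MRC5, none of the 8 genes was 2-fold different, where 3.65% of all measured genes were, 1.94% higher and 1.71% lower. ADAMTS4 and ADAMTS6 could not be called, and this count is not read as a result about the 8. Of the 8, 6 were higher and 2 lower, with a median of 0.30 beside -0.06 for all genes. Of the 11 fibroblast markers, 10 were lower in iCAFs, 2 of them 2-fold, with a median of -0.40, and their part in these differences was not tested. In iCAFs+JNKi against iCAFs, ADAMTS5 was 2-fold higher and none was 2-fold lower, where 4.22% of all genes were 2-fold different, 2.25% higher and 1.97% lower. The 8 genes were divided in this comparison, with 4 higher and 4 lower, and their median was 0.03 beside -0.10 for all genes. With the median gene set to 0, ADAMTS4 (0.04) and ADAMTS14 (0.01) turned from lower to higher. The genes that were higher were ADAMTS1, ADAMTS2, ADAMTS5 and ADAMTS12, the 4 most abundant in that table, while the 4 that were lower stayed under 2 FPKM. In iCAFs+JNKi against MRC5, ADAMTS2 and ADAMTS5 were 2-fold higher and none was 2-fold lower, where 6.81% of all genes were 2-fold different, 3.28% higher and 3.53% lower. In that comparison 7 of the 8 were higher, ADAMTS6 being the exception, and the median was 0.43 beside -0.16 for all genes. Of the 11 fibroblast markers, which include collagen genes, 10 were higher in iCAFs+JNKi than in iCAFs, 6 of them 2-fold, with a median of 1.07. The other, VIM, was lower, with a log2 change of -0.45. The part of these markers in these differences was not tested. The 3 comparisons of this table share libraries, so the difference with JNKi and the difference of iCAFs from MRC5 are not independent.

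**Figure D2:**
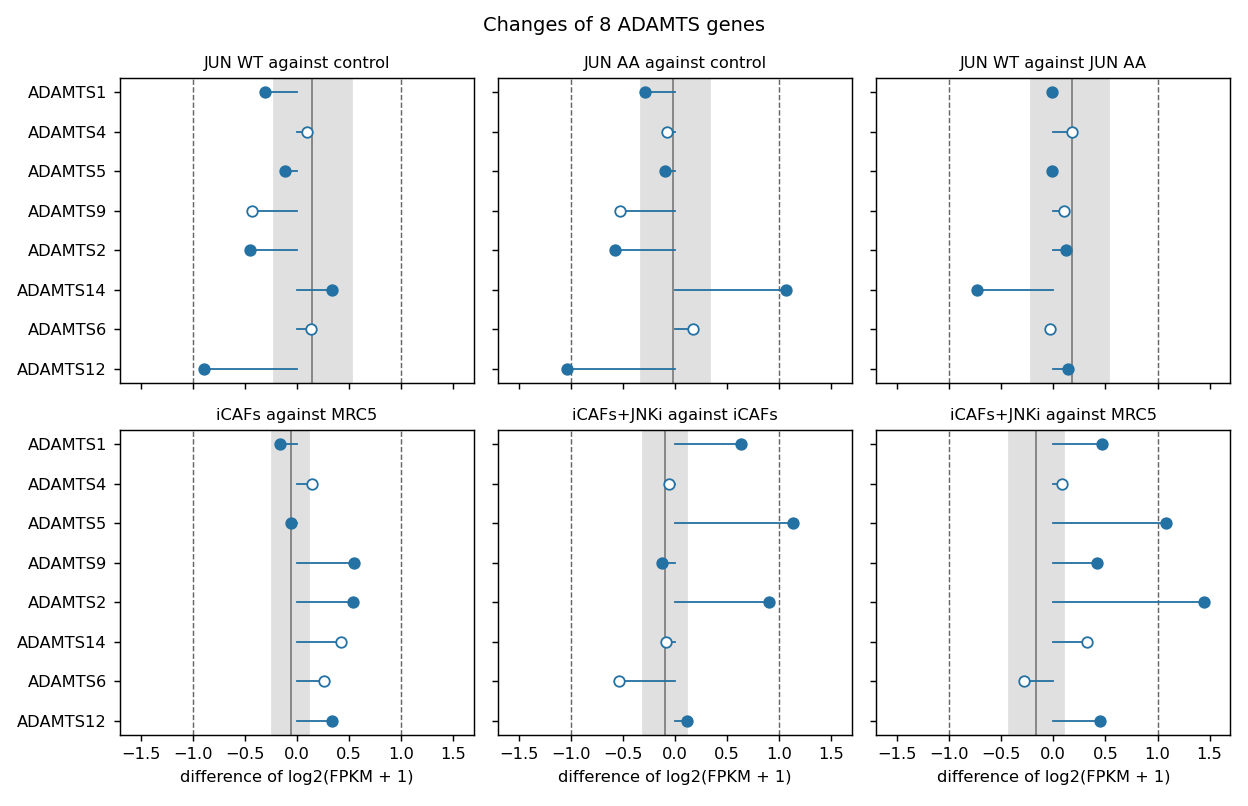
Differences of log2(FPKM + 1) for the 8 ADAMTS genes in 6 comparisons, with filled points for genes whose mean in the table reached 1 FPKM and open points for the others. The grey band spans the lower to upper quartile of all measured genes, the solid grey line is their median and the dashed lines mark 2-fold. ADAMTS12 lies to the left in JUN WT and JUN AA, ADAMTS14 to the right in JUN AA, and ADAMTS2 and ADAMTS5 to the right with JNKi.

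The summed FPKM of the 8 genes was 83.0 with the empty vector, 62.9 with JUN WT and 63.1 with JUN AA, and 119 in MRC5, 125 in iCAFs and 195 after JNKi. All genes summed to 498514 FPKM in JUN WT and 613184 in JUN AA, so the near-equal sums of these libraries depend on scaling. The 4 proteoglycan-cleaving members accounted for 43.8, 35.2 and 35.3 FPKM in the first table, in the same order. They accounted for 84.8 FPKM in MRC5, 76.8 in iCAFs and 121 after JNKi. The share of ADAMTS2 and ADAMTS14 together was 15.9% in MRC5, 22.6% in iCAFs and 26.9% after JNKi, while in the first table it stayed between 37.4% and 38.2%. The 2 genes went opposite ways in the first table. With the empty vector, JUN WT and JUN AA, ADAMTS2 was at 35.1%, 33.4% and 30.4% and ADAMTS14 at 2.24%, 4.13% and 7.87%.

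**Figure D3:**
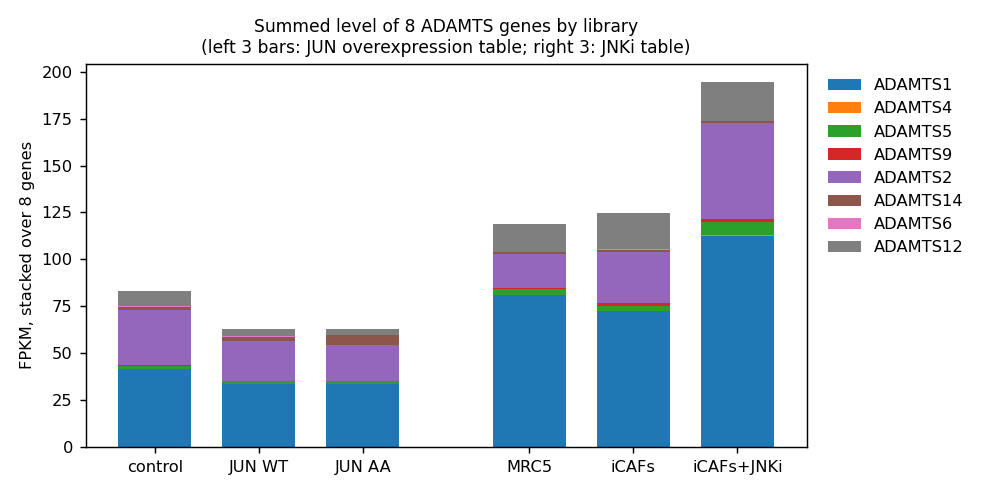
FPKM of the 8 ADAMTS genes stacked for each library, from 0, with the JUN overexpression table on the left and the JNKi table on the right. The bar of iCAFs+JNKi reaches 195 FPKM, that of iCAFs 125 FPKM, and ADAMTS1 and ADAMTS2 form most of every bar.

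Promoters were read because JUN is part of AP-1, a transcription factor that binds short palindromic DNA motifs. Of the 8 genes, 4 had an entry in the RefSeq promoter sequences used (GRCh38.p14), each covering 250 bases before the start of the gene to 50 bases after it. They are ADAMTS2 (chr5:179345412-179345711, minus strand), ADAMTS14 (chr10:70672256-70672555, plus strand), ADAMTS6 (chr5:65481871-65482170, minus strand) and ADAMTS12 (chr5:33891941-33892240, minus strand). The AP-1 heptamer TGANTCA, of which the consensus form TGAGTCA is a special case, and the octamer TGACGTCA of the cyclic AMP response element, to which dimers of JUN with ATF proteins bind, were searched on both strands. The octamer is not a case of the heptamer. Capitals mark their matches in the sequences, which are given 5′ to 3′ in the direction of the gene.
ADAMTS2: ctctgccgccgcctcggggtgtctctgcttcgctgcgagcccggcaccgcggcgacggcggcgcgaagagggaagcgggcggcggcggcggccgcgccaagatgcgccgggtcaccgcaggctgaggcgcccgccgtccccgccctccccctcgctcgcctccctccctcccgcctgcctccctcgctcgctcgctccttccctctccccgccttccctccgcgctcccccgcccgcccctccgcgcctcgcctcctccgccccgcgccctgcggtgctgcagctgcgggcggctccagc
ADAMTS14: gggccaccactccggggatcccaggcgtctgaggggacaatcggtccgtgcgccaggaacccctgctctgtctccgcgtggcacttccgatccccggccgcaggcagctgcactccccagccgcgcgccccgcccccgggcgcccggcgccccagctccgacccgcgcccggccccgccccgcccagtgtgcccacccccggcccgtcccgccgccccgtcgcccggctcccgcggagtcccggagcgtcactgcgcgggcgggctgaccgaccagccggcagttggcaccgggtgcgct
ADAMTS6: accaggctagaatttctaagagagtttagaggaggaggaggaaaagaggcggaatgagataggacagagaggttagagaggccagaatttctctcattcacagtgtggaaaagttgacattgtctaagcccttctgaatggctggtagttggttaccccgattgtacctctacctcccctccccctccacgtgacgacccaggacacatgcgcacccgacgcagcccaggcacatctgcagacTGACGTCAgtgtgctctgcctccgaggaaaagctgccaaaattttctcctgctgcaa
ADAMTS12: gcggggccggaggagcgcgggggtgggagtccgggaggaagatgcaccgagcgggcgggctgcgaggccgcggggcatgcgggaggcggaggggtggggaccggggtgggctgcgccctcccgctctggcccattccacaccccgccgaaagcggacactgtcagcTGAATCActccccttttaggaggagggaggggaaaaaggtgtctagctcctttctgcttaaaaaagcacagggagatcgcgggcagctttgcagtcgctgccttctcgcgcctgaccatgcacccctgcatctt
ADAMTS12 held the heptamer as TGAATCA, with its first base 84 bases before the start, and did not hold the consensus form. ADAMTS6 held the octamer, with its first base 7 bases before the start. No match to these letters was in the windows of ADAMTS2 and ADAMTS14. Of 27305 promoters of the same length, 7.76% held TGANTCA, 4.92% held TGAGTCA and 1.98% held TGACGTCA. The windows of ADAMTS2 and ADAMTS14 had a GC content of 80.3% and 79.7%, that of ADAMTS12 67.0% and that of ADAMTS6 52.0%.

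The other ADAMTS genes were taken from a list of 11. Of these, 4 passed the mean of 1 FPKM in the first table. ADAMTS8 and ADAMTS10 passed it only through the control, where they were high, so no count or median over the 4 is read as a direction of the list. ADAMTS8, another proteoglycan-cleaving enzyme, was at 2.92 FPKM with the empty vector, 0.147 with JUN WT and 0.287 with JUN AA, and was the lowest relative to the control in both. ADAMTS15, of the same kind, was at 4.03 FPKM with the empty vector, 0.473 with JUN WT and 2.07 with JUN AA. ADAMTS10, linked to fibrillin microfibrils, was at 1.65 FPKM with the empty vector, 0.429 with JUN WT and 0.996 with JUN AA. In the second table, 3 of the 11 passed. All 3 were higher in iCAFs+JNKi than in iCAFs, where 37.4% of all genes were. Their median of 0.98, beside -0.10 for all genes, is the value of ADAMTS8. ADAMTS7 alone was 2-fold higher, where 2.25% of all genes were, and ADAMTS10 changed by 0.14. No direction of the list is read from these 3 genes. ADAMTS7, which cleaves COMP as ADAMTS12 does, was at 3.04 FPKM in MRC5, 3.696 in iCAFs and 18.1 after JNKi, a log2 change of 2.02 with JNKi. In the first table ADAMTS7 was at 9.61 FPKM with the empty vector, 5.85 with JUN WT and 2.53 with JUN AA. Its log2 change against the control was -0.63 for JUN WT and -1.59 for JUN AA. Its reads may be divided with pseudogene copies of ADAMTS7, so these values are uncertain. ADAMTS8 was at 0.484 FPKM in MRC5, 2.76 in iCAFs and 6.40 after JNKi.

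Of 8 genes for proteoglycans, link proteins and COMP, VCAN, BGN and HAPLN3 passed the filter in each table, and the other 5 had values below 1 FPKM in all 6 libraries. VCAN, which encodes versican and shares exon bases with the antisense gene VCAN-AS1, was at 12.4 FPKM with the empty vector, 4.70 with JUN WT and 7.35 with JUN AA. It was at 19.9 FPKM in MRC5, 29.5 in iCAFs and 114 after JNKi, with a log2 change of 1.91 with JNKi. Of the 3 genes, all 3 were 2-fold lower in JUN WT, where 3.39% of all genes were, and 2 were 2-fold lower in JUN AA, where 3.77% were. With JNKi against iCAFs 2 of the 3 were 2-fold higher, where 2.25% of all genes were. Their median was -1.40 for JUN WT, -1.30 for JUN AA and 1.22 with JNKi, beside 0.15, -0.02 and -0.10 for all genes. HAPLN3, a link protein, had the lowest value relative to the control in JUN WT, at 3.55 FPKM against 12.2 FPKM. BGN, which encodes biglycan, was at 83.9 FPKM in the control and 33.03 FPKM in JUN AA. Aggrecan, encoded by ACAN, was listed at 0 in all 6 libraries.

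Of 10 genes for procollagens and the enzymes that process them, 6 passed the filter in each table, of which COL1A1, COL1A2 and COL3A1 are also among the fibroblast markers. All 6 were lower with either JUN than with the empty vector, with 3 of them 2-fold lower in each, where 3.39% of all genes were in JUN WT and 3.77% in JUN AA. All 6 were higher in iCAFs+JNKi than in iCAFs, with 4 of them 2-fold higher, where 2.25% of all genes were. Their median log2 change was -1.01 for JUN WT, -1.07 for JUN AA and 1.05 with JNKi, beside 0.15, -0.02 and -0.10 for all genes. COL3A1, the chain of type III procollagen and a substrate of ADAMTS2, was at 73.6 FPKM in MRC5, 46.4 in iCAFs and 296 after JNKi. COL5A1 was at 115 FPKM in the control and 32.4 FPKM in JUN WT, the lowest of the list relative to the control. PCOLCE, an enhancer of the C-proteinase that cuts the other end of procollagens, was at 224 FPKM in the control and 82.7 FPKM in JUN AA. COL5A1 and PCOLCE share exon bases with antisense genes.

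Genes that inhibit or clear the enzymes differed in both directions. Of 7 genes for inhibitors and clearance, all 7 passed the filter in the first table and 6 in the second. Their median log2 change was -0.03 for JUN WT, -0.50 for JUN AA and 0.03 with JNKi, beside 0.15, -0.02 and -0.10 for all genes. In JUN AA 6 of the 7 were lower than the control, while 48.6% of all genes were higher. Of the 7, 3 were 2-fold lower there, where 3.77% of all genes were. In JUN WT 1 was 2-fold lower, where 3.39% were, and with JNKi 1 was 2-fold higher, where 2.25% were. TIMP3 was at 42.8 FPKM with the empty vector, 41.8 with JUN WT and 18.8 with JUN AA, so JUN AA stood below the others, and at 63.9, 70.3 and 69.3 FPKM in MRC5, iCAFs and iCAFs with JNKi. A2M, which encodes the broad protease inhibitor α2-macroglobulin and shares exon bases with A2M-AS1, had the widest differences of the list. It was at 33.1 FPKM with the empty vector, 2.30 with JUN WT and 3.53 with JUN AA. Its JNKi-table values were 20.5 FPKM in MRC5, 50.03 in iCAFs and 218 after JNKi. RECK, a membrane-bound protease inhibitor, was the highest of the list in JUN WT relative to the control, at 9.38 FPKM against 4.90 FPKM. Another list held the proprotein convertases and the enzymes that add fucose, and glucose onto it, to thrombospondin repeats. None of the 4 that passed in the first table and none of the 5 in the second was 2-fold different in any comparison. Between 3.65% and 12.3% of all genes were, so none among so few genes is not read as a result about this list. FURIN was at 42.7 FPKM with the empty vector, 50.4 with JUN WT and 43.8 with JUN AA.

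**Figure D4:**
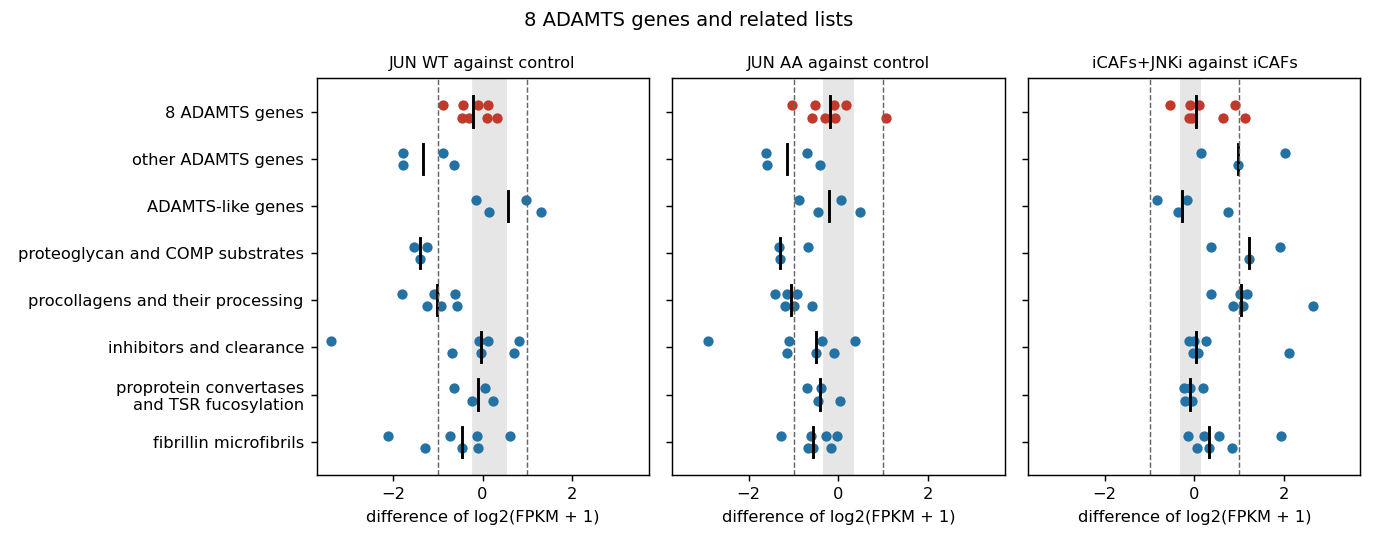
Differences of log2(FPKM + 1) in 3 comparisons for the 8 ADAMTS genes (red, whatever their level) and for genes of related lists whose mean in the table reached 1 FPKM (blue), with the median of each list as a black bar, the quartile range of all measured genes in grey and 2-fold as dashed lines. TSR stands for thrombospondin repeat, and ADAMTS8 and ADAMTS10 are in the JUN panels through their control values. ADAMTSL1 is in the JUN panels through JUN WT and in the JNKi panel through MRC5. The proteoglycan and COMP genes and the procollagens that passed lie to the left in JUN WT and JUN AA and to the right with JNKi, while the 8 ADAMTS genes spread to both sides.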

How the data were processed

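RNA was extracted with Trizol, libraries were made with the NEBNext Ultra kit, and the authors aligned the reads with HISAT2 (version 2.1.0, default parameters) against hg19 and deposited FPKM per gene from StringTie (version 2.1.1). The annotation and the strand setting are not given in the sources used here. Each table has 25370 rows, 28 of them with a date in place of the symbol, and of the 4 rows that share a symbol the one with the highest mean was kept. Groups were taken from the sample labels. The tables were normalised separately, so values were compared only within a table.

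Differences of log2(FPKM + 1) were taken for 6 comparisons in Python 3.11.15 with numpy 2.4.6 and pandas 2.3.3. FPKM are not counts and each condition has 1 library, so no count model and no test was used. In the JNKi table the most common ratio between libraries among genes under 0.5 FPKM lay between -0.10 and -0.01 on the log2 scale, the JUN table showed no such common ratio, and the number of reads behind a value is unknown. The 8 genes and the lists were chosen with earlier results of these data known. Named are the 8 genes, VCAN, TIMP3, JUN, the genes with the largest rise or fall of a list and, for the member of widest range in each table, the 5 genes nearest to it. Names outside this rule (ADAMTS10, ACAN, CDH1, ESRP1 and CD3E) were chosen after their values were seen. Gene positions, exons and transcripts come from GENCODE on GRCh37. The computation was tested on simulated data. The alternatives were rescaling of each library to an FPKM sum of 1000000, a pseudocount of 0.1, other filters, summing of rows with 1 symbol, and setting the median gene to 0. Removal of length and GC trends, as median changes in 20 bins of each over the 91.1% and 90.4% of genes with a known transcript, was added after the data were seen. Figures were drawn with matplotlib 3.10.9.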

Additional observations from a re-analysis of the deposited data

How the results depend on the processing

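With 1 library per condition, shifts over 0.25 (log2) or, for counts and shares, over 1.5 times were counted as moves, limits chosen here. Of 240 values, the log2 changes of 8 genes in 6 comparisons under 5 alternatives, 43 moved, 18 of them with a pseudocount of 0.1, and 18 had the other sign, none of them a 2-fold difference. The other moves were 12 with rescaled FPKM and 13 with trends removed. The 48 values under centring and the 48 under summed rows could not move. Centring shifted every gene by at most 0.18, below the limit, and summing rows left the 8 genes unchanged. Against the control or the preceding state, centring gave ADAMTS4 and ADAMTS6 in JUN WT, ADAMTS5 in iCAFs, and ADAMTS4 and ADAMTS14 with JNKi the other sign. No paired analysis was possible because each condition has 1 library.

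The number of the 8 genes with a 2-fold difference in JUN WT against the control, 0 as reported, was 2 with a pseudocount of 0.1 (ADAMTS9 and ADAMTS12, lower) and 1 with centred changes or with length and GC trends removed (ADAMTS12). In JUN AA against the control, the 2 genes became 1 with rescaled FPKM, with trends removed or at a mean of at least 5 FPKM, and 3 with a pseudocount of 0.1 (ADAMTS9 added, lower). Between JUN WT and JUN AA it was 1 in place of 0 with a pseudocount of 0.1 (ADAMTS4, listed at 0 in JUN AA). In iCAFs+JNKi against iCAFs, the 1 gene became 2 with rescaled FPKM, with centred changes (ADAMTS2 added) or with a pseudocount of 0.1 (ADAMTS6 added, lower), and 0 at a mean of at least 5 FPKM. In iCAFs+JNKi against MRC5, the 2 genes became 1 at that mean. A higher filter removes members by construction.

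The share of all genes called 2-fold was 17.0% for JUN WT and 13.9% for JUN AA against the control, 5.72% in iCAFs against MRC5, 6.53% with JNKi against iCAFs and 10.3% against MRC5 with a pseudocount of 0.1. Without a filter it was 4.45%, 3.89%, 1.87%, 2.20% and 3.50% in the same order, and 5.31% between JUN WT and JUN AA. It was 20.7% between JUN WT and JUN AA with rescaled FPKM and 5.78% in JUN AA against the control with trends removed. The share of higher genes among those called depended on scaling. It was 67.1% in JUN WT against the control and 45.5% with centred changes, 58.4% in JUN AA and 26.1% with rescaled FPKM, 54.3% between JUN WT and JUN AA and 82.9% or 33.3% with rescaled FPKM or centred changes, 53.3% with JNKi against iCAFs and 64.0% with centred changes, and 48.1% with JNKi against MRC5 and 65.9% with centred changes. The number of reads is unknown, so how far it limits the values under 1 FPKM, as of ADAMTS4 and ADAMTS6, cannot be given.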

Other observations

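The ADAMTS-like genes encode relatives of these enzymes without a protease domain. Of 7 such genes, 4 passed the filter in each table. ADAMTSL1 was at 0.535 FPKM with the empty vector, 2.78 with JUN WT and 0.603 with JUN AA, a log2 change of 1.30 for JUN WT and 0.06 for JUN AA. It passed the filter only through JUN WT, where it was high. Its level was 8.96 FPKM in MRC5, 1.09 in iCAFs and 0.165 after JNKi, the lowest of the list relative to MRC5. In that table it passed the filter only through MRC5, where it was high. ADAMTSL4, which binds fibrillin microfibrils and shares exon bases with other genes on both strands, was at 8.39 FPKM with the empty vector, 9.38 with JUN WT and 4.10 with JUN AA. THSD4, also known as ADAMTSL6, shares exon bases with genes on the opposite strand and was at 23.9 FPKM in MRC5, 22.2 in iCAFs and 37.9 after JNKi.

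Of 8 genes of the fibrillin microfibril, 7 passed the filter in each table. In JUN WT against the control 6 of 7 were lower, while 60.9% of all genes were higher. Their median log2 change was -0.47, beside 0.15 for all genes. Of the 7, 2 were 2-fold lower, where 3.39% of all genes were. MFAP2, a microfibril-associated glycoprotein, was at 14.8 FPKM against 67.1 FPKM. In JUN AA all 7 were lower, while 48.6% of all genes were higher. The median was -0.57 beside -0.02 for all genes, and 1 was 2-fold lower, where 3.77% of all genes were. LTBP2 was at 4.22 FPKM against 11.8 FPKM. With JNKi against iCAFs 6 of 7 were higher, where 37.4% of all genes were. The median was 0.32 beside -0.10 for all genes, and 1 was 2-fold higher, where 2.25% of all genes were. FBN2, which encodes fibrillin-2, was at 54.6 FPKM against 13.6 FPKM. MFAP2, LTBP2 and FBN2 share exon bases with genes on the opposite strand.

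By distance between centred log2(FPKM + 1) values over the 3 libraries of a table, the genes nearest to ADAMTS14 in the JUN table were RBM34, SNRPD1, SCARNA12, C12orf29 and SNHG8, at distances of 0.013 to 0.028 among 10311 genes. RBM34 was at 7.50 FPKM with the empty vector, 9.78 with JUN WT and 17.0 with JUN AA. The genes nearest to ADAMTS2 in the JNKi table were OR1Q1, SOCS2-AS1, PCDHGB3, STK38L and RASL11A, at distances of 0.063 to 0.093 among 11780 genes. OR1Q1 was at 0.111 FPKM in MRC5, 0.688 in iCAFs and 2.21 after JNKi. It passed the filter only through iCAFs+JNKi, where it was high, so its place as the nearest gene is uncertain. STK38L was at 2.07 FPKM in MRC5, 3.40 in iCAFs and 6.72 after JNKi. PCDHGB3, RBM34, C12orf29, SNHG8 and SOCS2-AS1 share exon bases with other genes, and the overlaps of SCARNA12 are not known here. Whether other genes have neighbours as near over 3 libraries was not tested.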
